A study of Mus musculus with 16 samples.

Results

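The genes described here encode the proteins of the cytoplasmic ribosome in mouse microglia. They were taken by symbol: every gene named Rpl or Rps plus a number, with the suffixes a, l, x, al and l1 allowed, and Rplp0, Rplp1, Rplp2 and Rpsa. This gave 87 genes of the 53700 listed, 54 named for the large subunit and 33 for the small one. Pseudogenes with a "-ps" name and the Rps6k kinases were left out. The pattern also took in Rpl6l, Rpl32l, Rps4l and Rps12l1, which the GENCODE M21 annotation lists as processed pseudogenes, and it missed a few such as Rps3a1, Fau and Rack1, which are given separately below. Of the 87 genes, 84 passed the filter on low counts. Rpl3l, Rpl10l and Rps12l1 did not, and Rpl10l had no count in any library.

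Microglia, the resident macrophages of the brain, were sorted from whole brains of Ercc1 knockout (KO) and control (WT) mice on a C57Bl6J/FVB cross at 6 and 12 weeks of age. Each genotype had 4 libraries per age, 16 in all, and the groups of 6 weeks are called young and those of 12 weeks older. ERCC1 is a subunit of a DNA repair nuclease, and the series title calls the animals accelerated aging mice. The sort gate asked for live, DAPI-negative cells that were CD11b high, CD45 intermediate and Ly6c negative, and the labels give the genotypes only as KO and WT, with no alleles. The young groups each held 2 male and 2 female samples and the older groups 3 male and 1 female. Nothing states that each library came from a separate animal, and 1 of the older WT libraries carries a double replicate number (5_6), so p-values measure the spread between these libraries.

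Each cytoplasmic ribosome has a large subunit, where peptide bonds form, and a small subunit, which decodes the mRNA. The Rpl genes encode the proteins of the large subunit and the Rps genes those of the small subunit. Because the proteins are needed in equal numbers, their mRNAs tend to be made in similar amounts, and most of them begin with a C followed by a run of pyrimidines, the 5′ terminal oligopyrimidine tract that places their translation under mTORC1 control. These short, abundant mRNAs have also been copied back into the genome many times, so that most ribosomal protein genes have processed pseudogenes with nearly the same sequence.

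Total counts ranged from 7882182 to 22142972 per library. Ercc1 was lower in each KO library than in any WT library of the same age (CPM between 2.82 and 4.54 against 13.5 to 30.6 at 6 weeks, and between 0.425 and 6.77 against 7.46 to 49.2 at 12 weeks). All 15 microglial markers had counts in every group. They summed to 86663 to 92960 CPM in young WT, 76572 to 89051 in young KO, 78539 to 87367 in older WT and 69200 to 72251 in older KO, so that older KO lay below every other library. At 12 weeks Cx3cr1, Gpr34 and P2ry12 fell and C1qb and C1qc rose in KO (edgeR). The 8 border macrophage markers summed to 51.1 to 94.5 CPM in young WT, 130 to 297 in young KO, 7.79 to 59.6 in older WT and 118 to 194 in older KO, with none at 0 in any group. The 5 erythroid genes summed to 2.38 to 34.2 CPM in older WT and 13.2 to 110 in older KO. The 7 monocyte markers summed to 6.17 to 18.7 CPM in young WT, 9.37 to 36.7 in young KO, 1.08 to 11.4 in older WT and 14.9 to 31.6 in older KO, so that the older groups did not overlap. The 3 that could be tested, Ccr2, Plac8 and Fn1, had median log2 values of 1.51 at 6 weeks and 3.49 at 12 weeks and did not pass, while Chil3 and Ly6c2 were at 0 in older WT and both KO groups. Replicates 3 and 8 of older WT stood apart from the other libraries in an earlier analysis of these files, and values without them are given where a direction or a median differs. Other lists are given as mean sums in young WT, young KO, older WT and older KO. The 9 neuron markers summed to 1255, 981, 1337 and 1002 CPM, and the 7 astrocyte markers to 380, 337, 314 and 356. The 9 oligodendrocyte markers summed to 327, 301, 265 and 240 CPM, and the 8 endothelial and mural markers to 64.2, 30.2, 39.3 and 30.3. The 8 lymphoid markers summed to 4.78, 2.92, 7.55 and 2.02 CPM, and the 7 neutrophil markers to 18.8, 0.770, 0.0475 and 2.30. The part of other cells in the results below was not tested.

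Shared sequence can limit how far a ribosomal protein gene is counted on its own, so a few stretches are shown first. Bases 301 to 375 of the coding sequence are given for 4 genes, each with the pseudogene most like it, and capitals mark the bases that differ within a pair. The sequences come from the GENCODE M21 transcripts (GRCm38). Rps6 (chr4:86854660-86857412, minus strand), the S6 kinase substrate of the small subunit, and Rps6-ps4 (chr2:75191073-75191822, minus strand) are identical over all 750 coding bases. Rpl5 (chr5:107900502-107909005, plus strand), which carries the 5S RNA, and Gm15500 (chr7:114705217-114706235, minus strand) are identical over 894 bases. Rpl4 (chr9:64173375-64178666, plus strand) differs from Gm5835 (chr1:143093347-143094616, minus strand) at 34 of 1257 aligned bases, and Rps3 (chr7:99477896-99483738, minus strand) from Gm8130 (chr16:23050282-23050851, plus strand) at 24 of 570.
Rps6: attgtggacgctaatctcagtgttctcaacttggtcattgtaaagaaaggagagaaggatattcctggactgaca
Rps6-ps4: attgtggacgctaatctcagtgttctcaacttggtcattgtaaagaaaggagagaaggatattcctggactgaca
Rpl5: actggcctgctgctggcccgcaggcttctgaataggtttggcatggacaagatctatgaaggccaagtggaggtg
Gm15500: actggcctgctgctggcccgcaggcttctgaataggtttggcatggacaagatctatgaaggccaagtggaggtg
Rpl4: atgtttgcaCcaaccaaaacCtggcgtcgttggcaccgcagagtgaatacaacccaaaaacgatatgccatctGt
Gm5835: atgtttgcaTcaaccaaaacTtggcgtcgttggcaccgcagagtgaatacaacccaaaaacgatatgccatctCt
Rps3: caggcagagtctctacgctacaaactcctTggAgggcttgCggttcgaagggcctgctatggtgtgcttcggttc
Gm8130: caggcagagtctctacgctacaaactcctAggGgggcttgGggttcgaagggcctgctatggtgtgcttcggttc

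Levels tended to be lower in genes that shared more of their sequence, with exceptions, and the cause was not tested. For the 83 members with a coding sequence, the share of 50-base stretches found in at least 1 other gene had a median of 91.3%. It was over 50% in 68 members and over 90% in 45, and 3 members, among them Rpl3l and Rpl39l, shared none. Across these 83 genes, which were counted in the same libraries, levels per kilobase of coding sequence were lower the more was shared (Spearman rho of -0.53, a description over genes). For many of them the pseudogenes held the counts; the next values are means over the 16 libraries, scaled by library totals alone. Rps6 had 2.45 CPM and Rps6-ps4 had 83.8. Rpl5 had 13.7 and Gm15500 had 78.2. Rps27 had 4.47 CPM and the coding gene Rps27rt, whose sequence contains all 50-base stretches of Rps27, had 47.3. By contrast Rpl4 had 324 CPM and Gm5835 had 101, and Rps3 had 288 and Gm8130 had 6.34. For 53 members the pseudogene copies together held more counts than the gene. How the counting treated reads that fit several genes is not given in the sources used here, so the level of such a gene is uncertain, also in comparison with other genes.

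**Figure D1:**
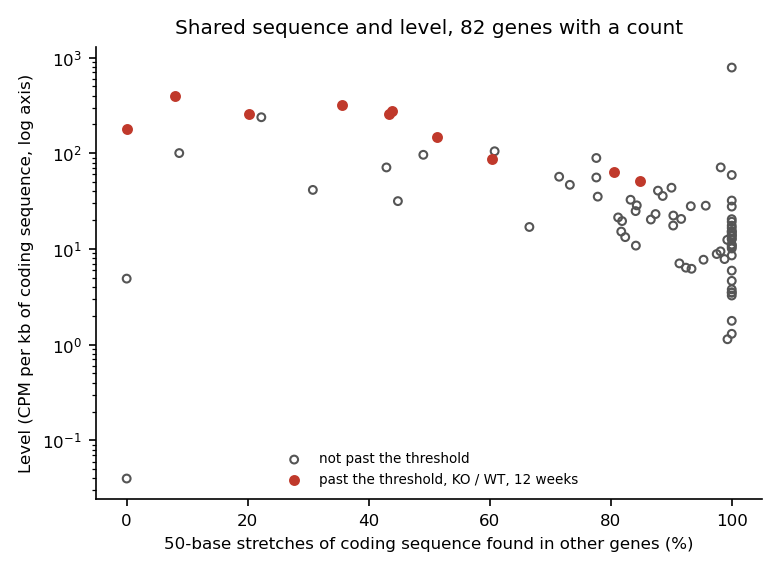
Level in CPM per kilobase of coding sequence (log axis) against the percentage of 50-base coding stretches found in other genes, 1 point per gene. The 10 genes past the threshold for KO against WT at 12 weeks (filled) lie among the better counted ones, and genes near 100% are mostly low. Rpl10l, with no count, is not drawn.

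Per kilobase of coding sequence among the highest levels were those of Rpl41 (786 CPM per kb, on a coding sequence of only 78 bases, all of it shared), Rps3 (393) and Rpl32 (322). At the low end were Rpl10l (0), Rpl3l (0.0399), Rpl24 (1.14) and Rpl23a (1.30). Rpl3l and Rpl10l are paralogs known from muscle and testis. Rpl24 and Rpl23a, in contrast, are standard components of the large subunit, shared 99.3% and 100% of their 50-base stretches, and had 49.1 and 19.9 CPM in their pseudogene copies against 0.54 and 0.61 in the gene.

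Together the 87 genes took a small share of the counts, and this share was higher in KO than in WT at both ages. In the order of the replicate numbers, the share of all counts was 0.196%, 0.184%, 0.174% and 0.177% in young WT and 0.248%, 0.229%, 0.240% and 0.264% in young KO. It was 0.222%, 0.211%, 0.220% and 0.242% in older WT and 0.312%, 0.358%, 0.304% and 0.337% in older KO. At each age every KO library lay above every WT library, and within each genotype every 12-week library lay above every 6-week library. The ranges of young KO and older WT overlapped. The share of mitochondrially encoded genes moved in the same way, with means of 0.221%, 0.350%, 0.326% and 0.567% in young WT, young KO, older WT and older KO, and its part was not tested. In bulk samples a different mix of cells and a different amount of RNA per cell cannot be told apart.

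Both subunits showed this order. The large subunit share was 0.105% ± 0.0021 (SD, n = 4) in young WT, 0.139% ± 0.0053 in young KO, 0.128% ± 0.0062 in older WT and 0.178% ± 0.0117 in older KO. The small subunit share was 0.0781% ± 0.0081, 0.106% ± 0.0103, 0.0962% ± 0.0079 and 0.149% ± 0.0133 in the same order. The ratio of large to small counts was 1.35 ± 0.11, 1.32 ± 0.09 and 1.33 ± 0.07 in the first 3 groups and 1.20 ± 0.04 in older KO. The 4 ratios of older KO lay between 1.16 and 1.26, just under those of older WT (1.26 to 1.42), while those of young WT began at 1.19. Without Rpl7l1, a single gene that is described below, the ratio was 1.14, 1.16, 1.12 and 1.08, and the older groups overlapped (1.05 to 1.18 in WT and 1.06 to 1.12 in KO). In the other sums tried the older groups stayed apart, with WT above KO. Without Rpl4 and Rps3 the ratio was 1.39 to 1.56 in older WT and 1.14 to 1.29 in older KO. Without the 10 genes called at 12 weeks, which are given next, it was 3.08 to 3.56 and 2.65 to 2.95, and with pseudogene copies added 1.49 to 1.63 and 1.44 to 1.47. These sums were chosen after the values were seen.

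**Figure D2:**
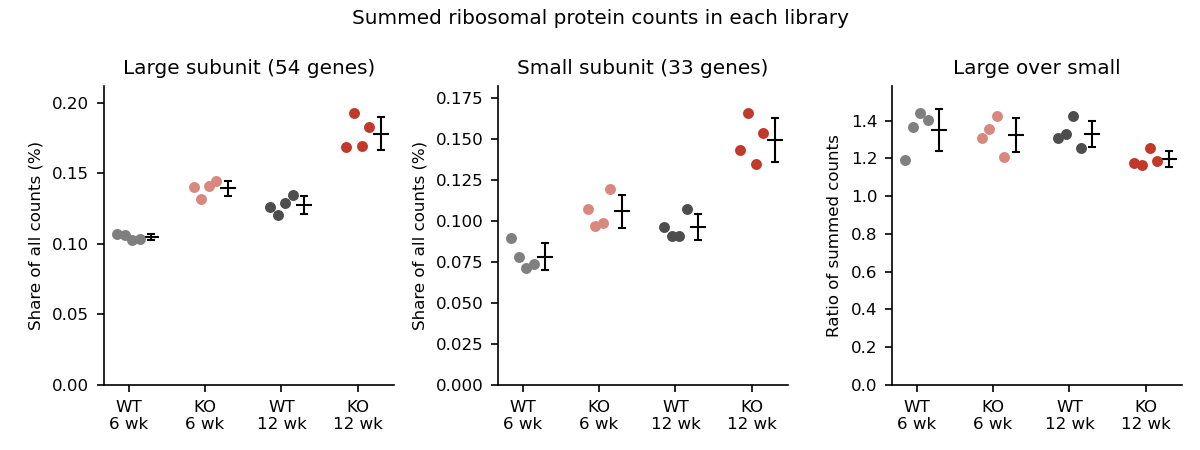
Share of all counts taken by large subunit genes (left) and small subunit genes (middle), and the ratio of their summed counts (right), for each library. Points are libraries, and bars are the mean and SD of 4 libraries. Both shares are higher in KO than in WT at each age, and the ratio is lowest in older KO.

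Single genes were then tested for KO against WT with edgeR's quasi-likelihood test on all 17090 genes tested, with Benjamini-Hochberg adjustment over all of them and a threshold of 0.05. Of the 84 members tested, 3 rose at 6 weeks and 0 fell, where 0.796% of all genes rose and 0.0761% fell. At 12 weeks 10 rose and 0 fell, where 2.03% of all genes rose and 0.954% fell. All 3 genes of the younger age, Rplp0, Rpl32 and Rps3, were among the 10 of the older. Of the 10, 3 of 52 belonged to the large subunit (Rplp0, Rpl4 and Rpl32) and 7 of 32 to the small one (among them Rps3, Rps9, Rps14, Rps19 and Rps20), a difference that was not tested. DESeq2 called 10 members at 6 weeks and 18 at 12 weeks, all higher in KO, where it called 1.82% and 4.35% of all genes higher. At 6 weeks it gave 12 members no adjusted p, so these could not be called. Fitted to the libraries of that age alone, edgeR called 4 members higher at 12 weeks and 1.19% of all genes. Leaving out replicate 2 of older KO, 6 members rose at 12 weeks and 1.34% of all genes.

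The stalk of the large subunit, which recruits the elongation factors, is built on uL10, the product of Rplp0. Rplp0 stood at 54.8, 55.5, 54.9 and 55.2 CPM in young WT and at 95.3, 83.1, 107 and 105 CPM in young KO. In the older mice the WT libraries had 58.6, 64.6, 60.7 and 51.8 CPM and the KO libraries 123, 120, 127 and 116. The groups were far apart at both ages, and all 8 WT libraries lay below all 8 KO libraries. The log2 change was 0.82 ± 0.12 (SE) at 6 weeks (adjusted p = 0.00237, edgeR) and 1.04 ± 0.12 at 12 weeks (adjusted p = 0.000151, edgeR). Rplp1, which encodes a protein that binds this base, averaged 23.0 ± 2.48 CPM (SD, n = 4) in young WT and 40.4 ± 4.75 in young KO. Its groups did not overlap at 6 weeks, but the change missed the threshold (log2 0.82 ± 0.19, adjusted p = 0.0581, edgeR). At 12 weeks it averaged 33.6 ± 7.32 CPM in WT and 47.8 ± 3.78 in KO (log2 0.51 ± 0.19, adjusted p = 0.188, edgeR), with 44.5 CPM in the highest WT library and overlapping groups. Rplp2, its dimer partner, stayed between 3.57 and 11.7 CPM in all libraries, with log2 values of 0.38 ± 0.44 and 0.04 ± 0.44.

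Rpl32 encodes another protein of the large subunit. It had 83.5, 74.9, 61.0 and 58.1 CPM in young WT and 129, 104, 139 and 159 in young KO. In older WT it had 98.7, 103, 90.9 and 125 CPM, and in older KO 207, 257, 203 and 204. KO lay above WT in every library at both ages, and the older KO libraries stood above all others. The log2 change was 0.93 ± 0.16 at 6 weeks (adjusted p = 0.00673, edgeR) and 1.06 ± 0.16 at 12 weeks (adjusted p = 0.000948, edgeR). Rpl32l, a retrocopy that shares part of its sequence, followed the same order, with means of 5.71, 10.6, 9.12 and 17.9 CPM and no overlap between KO and WT at either age, but did not pass (adjusted p = 0.283 and 0.0824, edgeR).

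Rpl4, the best counted member, encodes a protein that lines the exit tunnel. It had 258, 281, 257 and 242 CPM in young WT and 389, 335, 340 and 396 in young KO. In older WT it had 288, 250, 241 and 235 CPM, and in older KO 363, 509, 377 and 440. KO and WT did not overlap at either age. The change was 0.49 ± 0.12 at 6 weeks (adjusted p = 0.0678, edgeR), which missed the threshold, and 0.74 ± 0.12 at 12 weeks (adjusted p = 0.00172, edgeR). Its levels in WT at 6 and 12 weeks were alike within the spread (log2 -0.04 ± 0.12). Rpl8, of the peptidyl transferase region, averaged 56.1 ± 1.47, 85.8 ± 6.91, 71.9 ± 15.1 and 97.2 ± 11.8 CPM in young WT, young KO, older WT and older KO, and missed the threshold at both ages (adjusted p = 0.0809 and 0.142, edgeR). Rpl8 is named here outside the naming rule, after its values were seen.

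Rpl5 and Rpl11 form a particle with the 5S RNA that can bind MDM2 when ribosome assembly fails. Rpl5 had 13.04, 15.3, 25.1 and 13.5 CPM in young WT, 10.3, 16.4, 18.4 and 7.47 in young KO, 10.8, 13.5, 17.6 and 6.33 in older WT and 9.19, 10.9, 23.5 and 8.52 in older KO. Rpl11 ranged from 3.06 to 14.4 CPM over the 16 libraries. All 4 groups overlapped for both genes, and the log2 values of Rpl5 were -0.39 ± 0.36 and -0.04 ± 0.36 and those of Rpl11 -0.43 ± 0.48 and 0.42 ± 0.48. Both genes shared 100% of their 50-base stretches, and their pseudogene copies held 78.7 and 43.6 CPM, more than the genes themselves.

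In the small subunit, Rps3 lies at the mRNA entry site and also acts in DNA repair. It had 230, 204, 205 and 181 CPM in young WT and 313, 261, 270 and 339 in young KO. At 12 weeks WT had 259, 266, 234 and 286 CPM and KO 380, 411, 328 and 441. The groups did not overlap at either age, and the change was 0.52 ± 0.11 at 6 weeks (adjusted p = 0.0307, edgeR) and 0.57 ± 0.11 at 12 weeks (adjusted p = 0.00667, edgeR). At 6 weeks it was the least firm of the 3 calls: it was lost when any 1 of the 8 libraries of that age, or replicate 1 of older KO, was left out (adjusted p up to 0.139, edgeR).

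Rps9, which helps keep decoding accurate, had 125, 145, 122 and 136 CPM in older WT and 200, 221, 186 and 176 in older KO, a change of 0.57 ± 0.12 (adjusted p = 0.0148, edgeR). Its values did not overlap between the older groups. At 6 weeks they did, with 129 CPM in the highest WT and 121 in the lowest KO library.

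Rps19 is the gene most often mutated in Diamond-Blackfan anemia, a failure of red cell production. It had 19.6, 20.3, 20.7 and 20.998 CPM in older WT and 40.9, 56.6, 38.2 and 42.5 in older KO. The WT values were tight and the lowest KO value was well above them, with a change of 1.13 ± 0.23 (adjusted p = 0.0135, edgeR). At 6 weeks WT had 21.1, 21.4, 15.9 and 10.3 CPM and KO 30.9, 26.4, 28.5 and 27.8, again without overlap but short of the threshold (adjusted p = 0.294, edgeR). Rps14, linked to the 5q- syndrome, averaged 57.5 ± 8.91 CPM in older WT and 96.3 ± 21.1 in older KO, a change of 0.74 ± 0.17 (adjusted p = 0.0252, edgeR). Rps20, of the head of the subunit, had 13.3, 7.79, 12.4 and 15.4 CPM in older WT and 37.7, 29.4, 24.4 and 29.7 in older KO. Its change, 1.30 ± 0.33, lay close to the threshold (adjusted p = 0.043, edgeR). Leaving out 1 library at a time, Rps20 missed the threshold in 11 of 16 fits, and Rps14 in 4, among them those without older KO replicate 2, with which Rps9 and Rps19 also missed it.

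**Figure D3:**
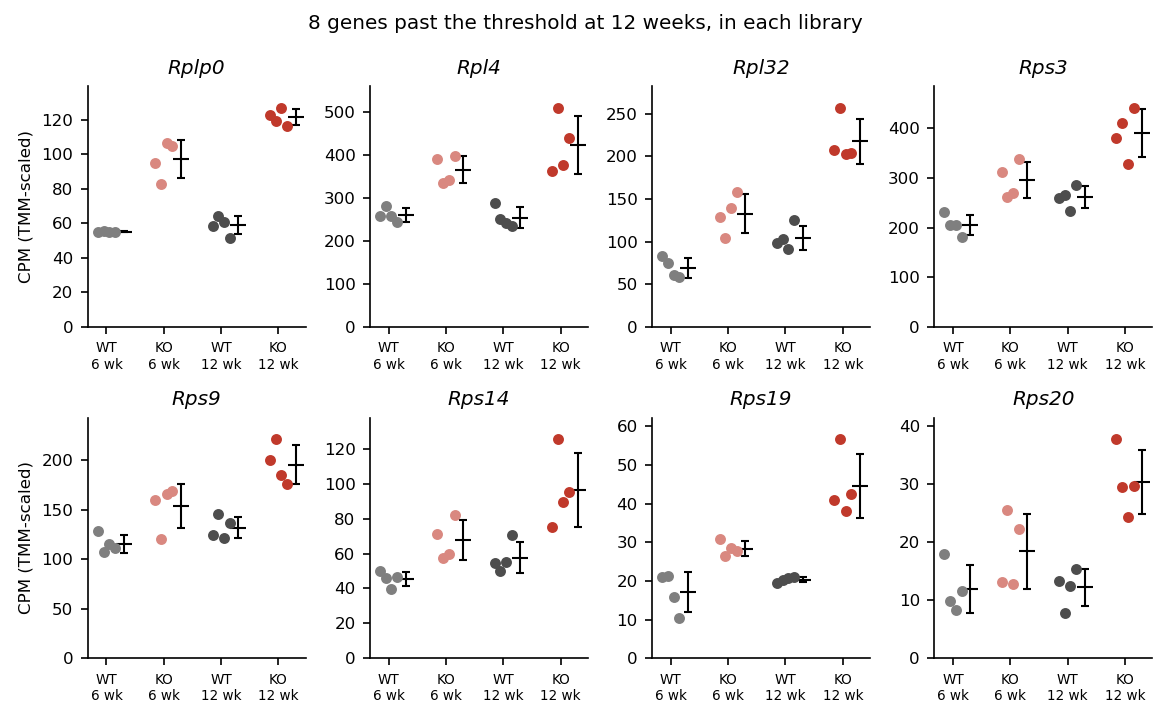
CPM on TMM-scaled library sizes of 8 genes that rose in KO at 12 weeks, in each library of the 4 groups. Points are libraries, and bars are the mean and SD of 4 libraries. For each gene the 4 KO libraries at 12 weeks lie above the 4 WT libraries of that age.

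Other small subunit genes that are often followed had low counts. Rps6 had between 0.351 and 5.50 CPM in all libraries and Rps27a, which is made as a fusion with ubiquitin, between 1.92 and 10.4. Rpsa, also known as a laminin receptor, averaged 5.75 ± 3.11, 7.39 ± 0.68, 6.20 ± 0.94 and 8.52 ± 1.58 CPM in the 4 groups in the order used above. For these 3 genes KO and WT overlapped at both ages. Rpl13a, a component of the complex that silences translation of interferon-gamma-induced mRNAs, ranged from 1.36 to 10.02 CPM, with log2 values of 0.31 ± 0.57 at 6 weeks and -0.32 ± 0.56 at 12 weeks, and of 0.074 at 12 weeks without replicates 3 and 8 of WT.

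Beyond the called genes, most members were higher in KO by a modest amount. The median log2 change of the 84 members was 0.38 at 6 weeks and 0.43 at 12 weeks, a ratio of 1.30 and 1.35, where the medians over all genes tested were -0.02 and -0.03. At 6 weeks 68 members were above 0 and 16 below, and at 12 weeks 66 and 18. KO and WT did not overlap, with KO higher, in 22 members at 6 weeks and 22 at 12 weeks (26.2% at each age), against 4.92% and 5.13% of all genes tested, and in the opposite direction in 0 members, against 2.96% and 3.08%. An unadjusted p under 0.05 was reached by 18 members (21.4%) at 6 weeks and 24 (28.6%) at 12 weeks, against 7.31% and 14.4% of all genes. Large subunit genes had median changes of 0.34 and 0.41 and small subunit genes 0.41 and 0.52 at 6 and 12 weeks. The large subunit median minus the small one was -0.07 at 6 weeks and -0.11 at 12 weeks. At 12 weeks it was -0.31 without replicates 3 and 8 of WT. A second measure took this gap in each library, from log2(CPM + 0.5) set against the mean of young WT. Its SD within groups was 0.15 at 6 weeks and 0.10 at 12 weeks. It was -0.262 to 0.086 in young WT and -0.341 to -0.020 in young KO. In older WT it was -0.055 to 0.277 and in older KO -0.116 to -0.075, without overlap. The difference was not tested.

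**Figure D4:**
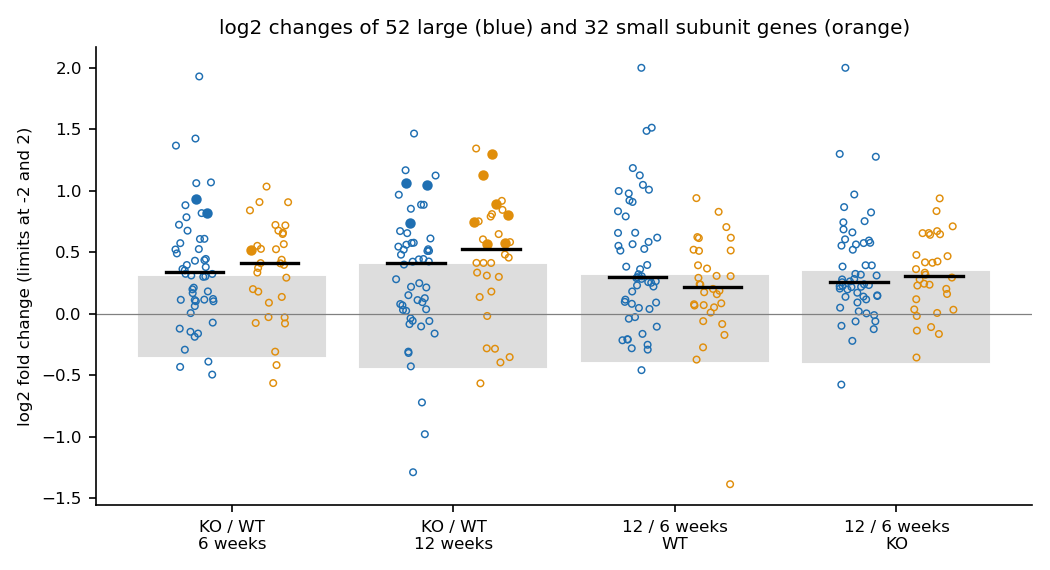
Log2 fold changes of 52 large (blue) and 32 small (orange) subunit genes in 4 comparisons. Filled points passed the threshold, black lines are medians, the grey boxes hold the middle 50% of all genes tested, and 1 gene (Rpl39l, 2 values) was drawn at the limit of 2. Medians lie above 0 in all 4 comparisons, and filled points appear for KO against WT alone.

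The calls lay with the better counted genes. Of 11 members with a mean of at least 50 CPM, 8 rose at 12 weeks and 10 had an unadjusted p under 0.05, and their median log2 change was 0.57 at 6 weeks and 0.74 at 12 weeks. Of 28 members between 10 and 50 CPM, 2 rose at 12 weeks (median 0.34 and 0.52), and of 45 members under 10 CPM 0 rose (median 0.32 and 0.25), where 1 had an unadjusted p under 0.05 by edgeR and DESeq2 called 0. Whether a change the size of these medians could be detected in the last class was not tested. Split by sequence, 6 of 13 members with at most 50% shared stretches rose at 12 weeks (median 0.57) and 4 of 68 with more (median 0.42). Over all levels, 2.03% of all genes rose at 12 weeks and 14.4% had an unadjusted p under 0.05 (edgeR). The share of all genes called at each level was not taken. These counts therefore do not set the members apart from other genes counted as well. Ribosomal protein genes are short, and 79 of the 81 coding members tested have coding sequences of up to 1000 bases. Of the other 3973 coding genes tested with such short sequences, the median log2 change was 0.05 at 6 weeks and 0.02 at 12 weeks.

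Among members with a mean of at least 5 CPM, the highest changes at 6 weeks were those of Rpl32, Rps26 (0.91 ± 0.31), Rpl32l (0.88 ± 0.28) and Rps18 (0.84 ± 0.30), and the lowest those of Rpl12 (-0.50 ± 0.49), Rpl11, Rps4l (-0.42 ± 0.52) and Rpl5. At 12 weeks the highest were Rps20, Rps19, Rpl30 (1.12 ± 0.49) and Rpl32, and the lowest Rpl13 (-0.43 ± 0.39), Rps27a (-0.40 ± 0.57), Rpl13a and Rpl7l1. None of the negative values passed the threshold, and several turned with the processing. With pseudogene copies added, as described below, the 6-week values of Rpl11 and Rpl5 were 0.68 and 0.30 and the 12-week values of Rpl13, Rps27a and Rpl13a were 0.38, 0.38 and 0.46. Without replicates 3 and 8 of WT, Rps27a and Rpl13a at 12 weeks were 0.37 and 0.074. Rpl30 did not pass at 12 weeks (adjusted p = 0.294, edgeR), although it had 4.65, 8.83, 13.8 and 8.12 CPM in WT and 22.5, 15.7, 23.9 and 16.2 in KO, with no overlap, while the young groups lay between 3.02 and 14.7 CPM.

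The paralogs, genes duplicated from a ribosomal protein gene, did not all follow. Rpl7l1, whose product works in the assembly of the large subunit, was the third best counted member. It had 147, 154, 175 and 180 CPM in young WT, 190, 165, 217 and 138 in young KO, 199, 188, 211 and 209 in older WT and 138, 142, 175 and 198 in older KO. It was the only member with a mean of at least 50 CPM whose 12-week value was negative (log2 -0.31 ± 0.15, adjusted p = 0.351, edgeR), and 1 KO library reached into the WT range. Its relative Rpl7 averaged 39.1 ± 8.87 CPM in older WT and 61.1 ± 8.77 in older KO (log2 0.65 ± 0.19, adjusted p = 0.0899, edgeR).

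Rps27l, a p53 target, shares 49.0% of its stretches and had higher levels than Rps27. It had 13.6, 13.8, 15.02 and 15.8 CPM in young WT and 21.3, 18.6, 27.6 and 28.2 in young KO, 29.0, 19.3, 24.6 and 16.4 in older WT and 32.5, 44.1, 32.9 and 40.4 in older KO. KO was higher without overlap at both ages, with changes of 0.72 ± 0.24 and 0.75 ± 0.24 that did not pass (adjusted p = 0.31 and 0.111, edgeR). Rps27 itself ranged from 0.317 to 12.5 CPM. Rpl22l1, the paralog that is held down by Rpl22, averaged 4.57 ± 0.76, 7.95 ± 2.97, 7.92 ± 5.54 and 8.50 ± 1.89 CPM, and Rpl22 14.5 ± 4.04, 20.3 ± 3.33, 15.2 ± 4.57 and 14.2 ± 3.88. Rps4x, the X-linked form, averaged 28.5, 35.9, 29.7 and 44.2 CPM and Rps4l 12.6, 9.35, 10.5 and 8.55. Rpl36a and Rpl36al stayed under 4 CPM in each library, and Rpl10 lay between 7.14 and 35.1.

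Rpl39l, the autosomal relative of the X-linked Rpl39 that is known from testis, had nearly all of its counts in the older mice. Its 16 libraries held 1 count in young WT, 2 in young KO, 107 in older WT and 34 in older KO. At 12 weeks the levels were 0, 2.56, 2.37 and 2.74 CPM in WT and 0, 0.744, 2.09 and 1.25 in KO, so that 3 of 4 libraries in each group had counts and 1 had none. The ratio of 12 to 6 weeks was 83.2 in WT, with a 95% exact binomial counting interval from 14.6 to 3316, and 27.0 in KO, with an interval from 6.93 to 232. Neither comparison passed the threshold (edgeR), and counting intervals cover counting error only. Rpl39 had means of 1.64, 4.38, 4.83 and 4.61 CPM. Rpl3l had 6 counts in young WT, 1 in young KO and 0 in both older groups, against 32.01, 34.3, 29.3 and 42.1 CPM for Rpl3.

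With age, no member passed in either genotype. Between 6 and 12 weeks, 0 of 84 members were called in WT, 0 in KO and 0 for the difference between the 2 genotype effects, where edgeR called 0.0117%, 0.0234% and 0.00585% of all genes. In KO 0.00585% of all genes were called higher and 0.0176% lower in the older mice. An unadjusted p under 0.05 was found for 14 members in WT, 18 in KO and 0 for the difference, against 7.44%, 8.8% and 4.74% of all genes, and DESeq2 called 0, 4 and 0. The 4 genes that DESeq2 called in KO, among them Rpl6, Rpl32 and Rps3, were all higher at 12 weeks, where it called 0.761% of all genes higher. It gave 54 of the 84 members no adjusted p in this comparison, so these could not be called. The median log2 change from 6 to 12 weeks was 0.29 in WT and 0.28 in KO, with 67 and 72 of 84 members above 0, where the medians over all genes were both -0.02. The other 3973 coding genes with coding sequences of up to 1000 bases had medians of 0.09 in WT and 0.07 in KO. Of these genes 59.9% and 56.0% were above 0. Groups did not overlap, with the older mice higher, in 15 members in WT and 14 in KO (17.9% and 16.7%), against 2.31% and 3.05% of all genes, and in 0 members the other way, against 3.0% and 3.51%. Without replicates 3 and 8 of older WT the WT median was 0.13.

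In WT the highest changes with age among members of at least 5 CPM were those of Rpl13 (1.05 ± 0.39), Rpl37 (1.01 ± 0.56), Rpl9 (1.00 ± 0.52) and Rpl13a (0.91), and the lowest those of Rpl12 (-0.28), Rps4l (-0.27), Rpl11 (-0.25) and Rpl27 (-0.21). In KO the highest were Rpl30 (1.28 ± 0.50), Rpl27 (0.97 ± 0.46), Rpl26 (0.87 ± 0.35) and Rpl6 (0.75 ± 0.21), and the lowest Rpl22 (-0.58), Rps4l (-0.14), Rpl28 (-0.13) and Rpl7l1 (-0.10). With copies added Rpl11 in WT was 0.47, without replicates 3 and 8 of older WT Rps4l in WT was 0.050, and leaving out single libraries turned the sign of Rpl27 and Rps4l in WT and of Rps4l, Rpl28 and Rpl7l1 in KO. The genotype effects differed most between the ages for Rpl30 (1.20 ± 0.68), Rpl27 (1.18 ± 0.64), Rpl11 (0.86 ± 0.68) and Rps20 (0.64 ± 0.46), and in the other direction for Rpl13 (-0.82 ± 0.55), Rpl9 (-0.74), Rpl13a (-0.63) and Rpl22l1 (-0.57), none with an unadjusted p under 0.05. For Rpl11 this difference was -0.32 with copies added. The comparisons share groups, so their medians are not independent of each other.

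Over the 4 groups, the mean was highest in older KO for 60 of 84 members and lowest in young WT for 58. For the large subunit these numbers were 37 and 34 of 52, and for the small subunit 23 and 24 of 32. The young KO and older WT groups held the middle ranks in most members.

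Since so many counts sat in near copies, the 1072 pseudogenes that share 50-base stretches with a member were summed and set beside the genes. They took 0.172%, 0.250%, 0.223% and 0.345% of all counts in young WT, young KO, older WT and older KO, close to the 0.183%, 0.245%, 0.224% and 0.328% of the members, and the ratio of copies to genes was 0.94, 1.02, 0.99 and 1.05. The copies were thus higher in KO at both ages as well. Of 74 tested genes with a "-ps" name, 1 rose at 6 weeks (Rps6-ps4) and 9 at 12 weeks, with medians of 0.59 and 0.60. Of all genes, 0.796% and 2.03% rose in the same fit. When each gene and its copies were counted as 1, which was decided after seeing the files, 3 of 85 rose at 6 weeks and 24 at 12 weeks, 10 of the large and 14 of the small subunit, among them all genes called before. In that fit 0.785% and 2.07% of all genes rose. The medians were then 0.52 and 0.58, and 77 and 78 of 85 were above 0.

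Several genes that had not passed on their own did so with their copies at 12 weeks. Of those described here, Rps6, Rps16 and Rpl24 had few counts of their own. Their means over the 16 libraries were 2.45, 2.05 and 0.54 CPM, scaled by library totals alone. Rps6 with its 14 copies averaged 60.9 ± 10.6, 94.6 ± 14.3, 79.9 ± 3.43 and 123 ± 15.4 CPM in the 4 groups, with 75.9 to 83.3 CPM in older WT and 111 to 145 in older KO (log2 0.63 ± 0.15, adjusted p = 0.0301, edgeR). Rpl3 with 26 copies averaged 133 ± 14.4 CPM in older WT and 221 ± 31.1 in older KO (0.74 ± 0.14, adjusted p = 0.00738, edgeR). Rps16 with 4 copies averaged 47.4 ± 5.204 and 85.1 ± 7.65 (0.85 ± 0.16, adjusted p = 0.0061, edgeR). Rpl24, whose own value at 12 weeks was -1.29 on fewer than 1 CPM, averaged 41.9 ± 4.31 and 69.3 ± 11.2 with its 8 copies (0.73 ± 0.18, adjusted p = 0.0395, edgeR). Rpl5 with 14 copies averaged 86.5 ± 8.36 and 113 ± 15.9 CPM and did not pass (0.40 ± 0.15, adjusted p = 0.214, edgeR). Which of the copies are transcribed themselves was not tested.

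**Figure D5:**
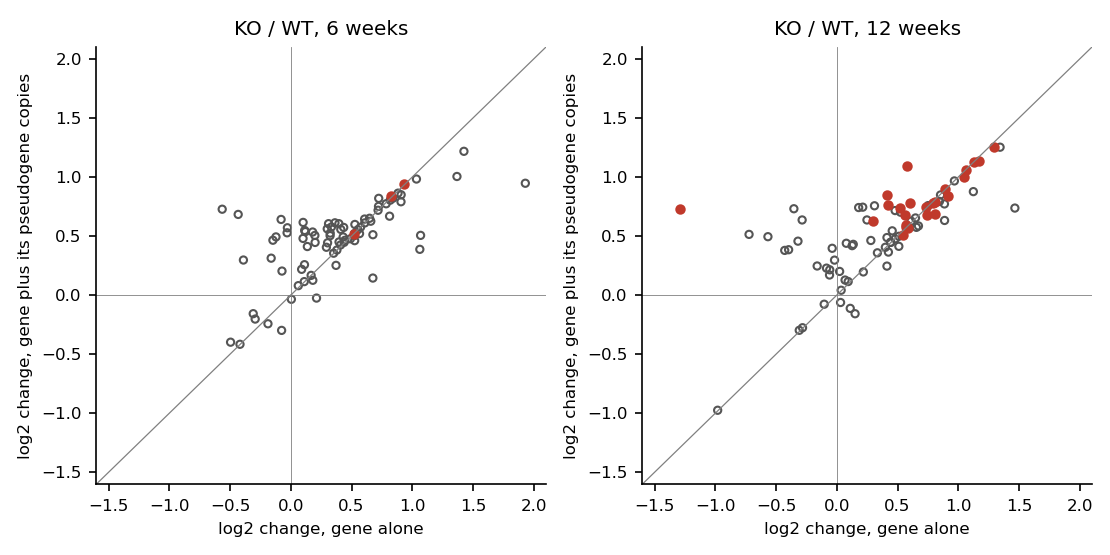
Log2 change of KO against WT for the gene alone (horizontal) and for the gene plus its pseudogene copies (vertical), at 6 weeks (left) and 12 weeks (right). Points are ribosomal protein genes, the diagonal marks equal values and filled points passed the threshold with the copies added (3 at 6 weeks and 24 at 12 weeks). Of genes with a negative value of their own, many lie above 0 on the vertical axis.

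Promoters were compared because most members had a positive log2 change in KO at each age, although few passed the threshold. RefSeq promoters (GRCm38.p6, from 250 bases before to 50 after the start) were matched for 64 of the 87 symbols. Windows from 45 bases before to 15 after the start are shown for Rpl4, which rose at 12 weeks, for Rpl38, which holds an ETS core and a pyrimidine tract, and for Rps27, a small subunit gene with the tract next to its start, with CCGGAAG and CTTTCC in capitals. They lie at chr9:64173342-64173401 (plus strand), chr11:114668535-114668594 (plus strand) and chr3:90213634-90213693 (minus strand).
Rpl4: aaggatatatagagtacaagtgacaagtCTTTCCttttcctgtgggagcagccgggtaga
Rpl38: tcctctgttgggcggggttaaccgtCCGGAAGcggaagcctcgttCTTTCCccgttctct
Rps27: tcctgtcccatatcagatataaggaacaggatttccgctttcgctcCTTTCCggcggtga

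The letters CTTTCC on the sense strand, a run of pyrimidines, stood within 50 bases of the start in 20 of 64 members (31.2%) and in 5.43% of 27025 genes. CTCTTT stood there in 19 members (29.7%) and in 4.68% of genes, and either of both in 31 members (48.4%) and 9.29% of genes. Such a match need not be the tract at which the mRNA starts, and the CTTTCC of Rpl4 shown above lies before the listed start. CCGGAAG, the core bound by ETS factors, searched on both strands over the whole window, stood in 25 members (39.1%) and in 9.93% of genes, among them 15 of 41 large and 10 of 23 small subunit genes. AAGATGGC, a YY1-type motif, stood in 9.38% of members and 3.19% of genes, and TATAAA in 12.5% and 15.7%. CTCTTT and CTTTCC can overlap each other, as can CCGGAAG and AAGATGGC. The members' promoters had a GC content of 57.7%, against 53.8% over all genes. Of the 10 genes called at 12 weeks, 5 had an entry (Rpl4, Rplp0, Rps3, Rps9 and Rps19), and 0 of these held CCGGAAG, 2 held CTTTCC (Rpl4 and Rps19) and 1 held CTCTTT (Rps9). A match of letters is a description of the sequence.

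Of the lists around the ribosome, the translation factors held most of the genes that passed. These lists were chosen with earlier results of these data known. Of the 4 ribosomal protein genes that the symbol pattern missed, 0 passed at either age, with medians of 0.43 and 0.48. Among these, Rack1, a signalling scaffold on the small subunit, averaged 71.4, 93.6, 78.2 and 114 CPM and Rps3a1 16.4, 24.5, 20.9 and 30.1. At an adjusted p under 0.05 by edgeR, 2 of 40 translation factors rose at 6 weeks and 5 at 12 weeks, and 0 fell, where 0.796% and 2.03% of all genes rose. The medians of the 40 were 0.23 and 0.25, and 30 were above 0 at each age. Eef1a1, which brings aminoacyl-tRNA to the ribosome, averaged 344 and 519 CPM at 6 weeks and 349 and 593 at 12 weeks in WT and KO (log2 0.59 ± 0.09 and 0.76 ± 0.09). Pabpc1, the poly(A)-binding protein, averaged 191 and 352, and 180 and 321 CPM (0.88 ± 0.12 and 0.84 ± 0.12). Eif3k, Eif4a1 and Eif5a rose at 12 weeks by 0.66 ± 0.16, 0.58 ± 0.11 and 0.43 ± 0.10.

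Of 50 ribosome assembly genes, 0 passed at 6 weeks and 1 rose at 12 weeks, Npm1 (0.81 ± 0.18, adjusted p = 0.0194, edgeR), with medians of 0.08 and 0.13. Of all genes, 0.796% rose at 6 weeks and 2.03% at 12 weeks, so 1 of 50 is near the share of all genes. Of 31 tested genes of mTORC1 and its control of these mRNAs, 0 passed at 6 weeks and 1 rose at 12 weeks, Myc (0.70 ± 0.16, adjusted p = 0.022, edgeR), with medians of -0.00 and 0.06. As 1 of 31, this too is close to that share. Of 77 mitochondrial ribosomal protein genes, which serve the separate ribosome of that organelle, 0 passed at either age, and their medians were 0.04 and 0.00 for KO against WT. Between 6 and 12 weeks their medians were 0.24 in WT and 0.18 in KO.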

How the data were processed

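RNA of sorted microglia was sequenced in 16 libraries. The authors deposited 1 table of raw counts of reads per gene for each library. Per the submitters' processing notes, the tools were FastQC 0.11.9, cutadapt 2.10, TopHat, SAMtools 1.10, Picard 2.13.2 and HTSeq 0.11.0 with the genome build GRCm39. Which annotation release was used, whether strand was, and how reads that fit several places were treated is not given in the sources used here. Totals of 7882182 to 22142972 counts put 3 counts at 0.135 to 0.381 CPM.

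The members, gene lists and tests were chosen with earlier results of these data known. One model in edgeR 4.0.16 (R 4.3.3, limma 3.58.1) held all 16 libraries, with a group and a sex term, TMM scaling, filterByExpr with a minimum count of 10, robust quasi-likelihood F-tests and Benjamini-Hochberg adjustment over 17090 genes at 0.05. CPM per library use TMM-scaled totals unless stated. Standard errors were derived from the log2 change and its F statistic. The fit was tested on simulated data. Genes named are those past the threshold, the 4 highest and lowest changes and levels per kilobase (changes at a mean of at least 5 CPM), the paralogs with their partners, and a fixed list (stalk, 5S particle, Rps6, Rpsa, Rps3, Rps19, Rps27a, Rpl13a). Some results that the rule covers are not reported here. Copies are pseudogenes with a 50-base stretch of a member's coding sequence in GENCODE M21 (GRCm38), matched to the files by gene identifier.

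Alternatives were RLE size factors, TMM without the members, no filter on low counts, DESeq2 1.42.0, no sex term, only the 2 groups compared, a replicate block, leaving out libraries and, added after seeing the files, adding copies to their gene.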

Additional observations from a re-analysis of the deposited data

Results flagged for a closer look

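In 6 of 120 groups of 4 libraries, 1 library lay far from the other 3 by Dixon's 95% criterion. Chance alone gives such a gap in about 1 of 20 groups, which is the share seen here. Rpl32, which rose at both ages, had 257 CPM in its highest older KO library, replicate 2. Rplp1, of the stalk, had 44.5 CPM in its highest older WT library, replicate 8, which lay among the KO libraries of that age. Rpl22l1 had 16.2 CPM in its highest older WT library, replicate 3. Rpl5 had 23.5 CPM in its highest older KO library, replicate 3, and Rpl11, its partner in the 5S particle, had 3.22 CPM in its lowest young KO library, replicate 2. Rpl10 had 27.2 CPM in its highest young WT library.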

How the results depend on the processing

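KO against WT kept a positive median and 0 members lower under all alternatives run. The number of members that rose was 10 at 6 weeks and 18 at 12 weeks with DESeq2, which also called 4 in KO with age. It was 6 at 6 weeks without the sex term (0.872% of all genes). That fit also called 1 member in KO with age, where 16 of 17090 genes were called, 2 higher and 14 lower. It was 4 at 12 weeks when only the 2 groups were fitted, and 5 at 6 weeks without replicates 3 and 8 of older WT (0.841% of all genes). With the replicate block it was 0 at 6 weeks and 0 at 12 weeks, where 0.532% and 0.322% of all genes rose. At 12 weeks only replicate numbers 3 and 4 occurred in both genotypes, so in the block the genotype effect of that age rested on these. Libraries were also correlated over all genes tested, on log2 levels with each gene's group mean subtracted. Correlations of the 12 same-numbered pairs lay between -0.0231 and 0.0705, and those of pairs with different numbers between -0.0675 and 0.0529. These values cannot decide whether such libraries were handled together, which is not given in the sources used here. At 6 weeks same-numbered KO and WT libraries were of the same sex. With the block the large minus small gap in WT with age was -0.21, which rested on replicates 3 and 4, the only numbers found at both ages in WT. Without replicates 3 and 8 the gap at 12 weeks was -0.31 and the WT age median 0.13, and Rpl13a and Rps27a at 12 weeks (0.074 and 0.37) and Rps4l in WT with age (0.050) turned positive. With copies added, medians were 0.52 at 6 weeks, 0.58 at 12 weeks and 0.41 in KO with age, 24 genes rose at 12 weeks, and the sign turned for Rpl11 (0.68) and Rpl5 (0.30) at 6 weeks, Rpl13 (0.38), Rpl13a (0.46) and Rps27a (0.38) at 12 weeks, and Rpl11 in WT with age (0.47) and between the genotype effects (-0.32). Leaving out 1 library gave 2 to 4 calls at 6 weeks, where 0.45% to 0.791% of all genes rose. At 12 weeks it gave 6 to 11 calls (6 without older KO replicate 2), where 1.34% to 1.92% of all genes rose. The gaps were then -0.28 to -0.11 at 12 weeks and -0.31 to 0.012 between the genotype effects. The medians with age were 0.18 to 0.33 in WT and 0.27 to 0.37 in KO. Signs turned for Rpl13a at 12 weeks (-0.57 to 0.042), for Rpl27 (-0.47 to 0.067) and Rps4l (-0.65 to 0.071) in WT with age, and for Rpl28 (-0.35 to 0.13), Rpl7l1 (-0.20 to 0.0064) and Rps4l (-0.80 to 0.15) in KO with age. Fits on fewer libraries have fewer residual degrees of freedom. Otherwise the cause was not tested. The 45 members under 10 CPM had few counts, and whether a small change could be detected in them was not tested.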
